A study of Schizosaccharomyces pombe with 6 samples.

Results

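On the chromosome arms of fission yeast, 437 stretches of 50 bp or more lay under a peak of the *SUMO-KallR* ChIP-seq list and under no peak of the WT list or of the untagged list. They were chosen by the peak positions alone, with the outer 100 kb of every chromosome end left out, as well as 50 kb to either side of the middle of *cnt*, the central core of a centromere. The stretches came from 387 *SUMO-KallR* peaks, including the arm parts of peaks that reach past these limits. The *SUMO-KallR* list has 1615 peaks, 1428 of them wholly on the arms. The untagged list has 961 peaks and the WT list 59, which makes 2635 peaks in all lists together. Of the 437 stretches, 20 were whole *SUMO-KallR* peaks that touched no peak of the other lists, 143 were bridges that filled a gap between neighbouring untagged peaks, and 274 were edge extensions, in which a *SUMO-KallR* peak ran past the end of an untagged peak. The whole peaks are the smallest kind by number and by length, with 10114 bp or 10.1% of the 100195 bp covered, against 37873 bp (37.8%) in bridges and 52208 bp (52.1%) in edge extensions.

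CFP-Cnp1 was precipitated with an anti-GFP antibody from *SUMO-KallR* CFP-cnp1 cells, WT CFP-cnp1 cells and an untagged strain, which carries no CFP-Cnp1 and shows what the antibody and the chromatin give without the target. *SUMO-KallR* cells make a SUMO (Pmt3) with arginine in place of every lysine, which removes the sites where a further SUMO would attach, while WT has unchanged SUMO. The strain list of the study gives both tagged strains the alleles *ade6-704*, *leu1-32*, *ura4-D18* and *CFP-cnp1:Kan*, with mating type h+ for WT and an undetermined mating type (h?) for *SUMO-KallR*, and the full genotype of the untagged strain is not given in the sources used here. All cultures grew in rich YES medium to exponential phase and were mixed with budding yeast cells as a calibrator. Since each of the 3 strains had a single ChIP sample (1 library) and its input, no difference between strains could be set against the spread between replicates and no test was made. Peaks of the *SUMO-KallR* list and of the WT list covered 3 of 3 *cnt* midpoints each, and untagged peaks covered 0 of 3.

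Cnp1 is the fission yeast CENP-A, the histone H3 variant that marks the place where the kinetochore is built, and in normal cells it is concentrated at the central cores. SUMO is a small protein that is attached to lysines of other proteins, and SUMO chains can mark a protein for removal by ubiquitin ligases that recognise SUMO. The arms hold closely packed protein-coding genes, with long non-coding RNA (lncRNA) genes in and between them. They also carry Tf2 retrotransposons, each flanked by long terminal repeats (LTRs), and many LTRs that stand alone. Divergent genes start away from each other, so that the sequence between them holds the promoters of both, tandem genes follow each other on one strand, and convergent genes end towards each other.

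Sequences around high summits within the stretches are shown to give the letters the *SUMO-KallR* list added. Each line gives 151 bp of the plus strand of ASM294v3, read 5′ to 3′, with the 21 bases centred on the summit in capitals, and windows that touch an annotated untranslated region were passed over, among them those at *arp6* and SPNCRNA.1643. The first 6 lines belong to whole peaks and the last 2 to edge extensions.
SPNCRNA.1058 and SPNCRNA.1059, chrI:5200888-5201038: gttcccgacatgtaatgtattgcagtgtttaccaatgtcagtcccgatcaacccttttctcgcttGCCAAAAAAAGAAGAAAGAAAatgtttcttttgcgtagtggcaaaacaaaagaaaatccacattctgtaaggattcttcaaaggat
mug124 and SPNCRNA.1453, chrII:1686937-1687087: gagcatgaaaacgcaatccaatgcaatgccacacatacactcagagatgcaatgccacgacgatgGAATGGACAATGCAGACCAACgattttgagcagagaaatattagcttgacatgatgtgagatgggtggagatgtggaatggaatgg
SPNCRNA.2175 and SPNCRNA.2176, chrI:441297-441447: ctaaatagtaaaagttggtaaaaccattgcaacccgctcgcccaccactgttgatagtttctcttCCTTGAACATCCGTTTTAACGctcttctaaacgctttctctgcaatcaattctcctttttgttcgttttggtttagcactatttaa
SPNCRNA.383 and SPNCRNA.5428, chrII:1969892-1970042: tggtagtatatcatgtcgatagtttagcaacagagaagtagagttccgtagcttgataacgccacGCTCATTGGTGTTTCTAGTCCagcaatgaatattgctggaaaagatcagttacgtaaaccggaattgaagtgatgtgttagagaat
SPNCRNA.831, chrI:2519650-2519800: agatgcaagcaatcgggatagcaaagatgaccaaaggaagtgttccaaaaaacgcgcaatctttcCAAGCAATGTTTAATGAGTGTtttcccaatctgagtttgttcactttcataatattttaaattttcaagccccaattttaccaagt
SPNCRNA.964, chrI:4142912-4143062: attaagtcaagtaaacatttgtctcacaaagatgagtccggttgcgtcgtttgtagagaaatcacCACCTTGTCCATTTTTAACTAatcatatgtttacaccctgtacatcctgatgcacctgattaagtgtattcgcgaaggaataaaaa
SPNCRNA.1164, chrIII:970133-970283: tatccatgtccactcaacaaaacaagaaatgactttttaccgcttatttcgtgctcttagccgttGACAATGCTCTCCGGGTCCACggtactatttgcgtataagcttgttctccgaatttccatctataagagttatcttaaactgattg
SPNCRNA.3598, chrI:3574407-3574557: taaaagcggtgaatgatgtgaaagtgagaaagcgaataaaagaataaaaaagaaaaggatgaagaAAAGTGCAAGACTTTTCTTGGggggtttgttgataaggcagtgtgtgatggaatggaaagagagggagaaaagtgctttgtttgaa
Their GC content ran between 35.8% and 45.0%, with the lowest value at SPNCRNA.831 and the highest in the coding sequence of *mug124*. Of these summits 7 lay in a lncRNA gene with no coding overlap and 1 in a coding exon.

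In 2 whole peaks the *SUMO-KallR* peak began close to an LTR, and the junctions are shown because the LTR itself stayed outside the peak. In both lines the capitals are the 40 bases of the LTR nearest to the peak and the final 60 bases lie in the *SUMO-KallR* peak. Both lines show the plus strand of ASM294v3. The first LTR is annotated on the minus strand and the second on the plus strand.
LTR at chrI:5200296-5200657 and the SPNCRNA.1058 peak, chrI:5200618-5200802: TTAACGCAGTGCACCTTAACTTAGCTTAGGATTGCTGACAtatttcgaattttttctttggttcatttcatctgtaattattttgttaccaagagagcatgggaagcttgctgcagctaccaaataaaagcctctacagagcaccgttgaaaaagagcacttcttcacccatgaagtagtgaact
LTR at chrII:1969441-1969789 and the SPNCRNA.383 peak, chrII:1969750-1969869: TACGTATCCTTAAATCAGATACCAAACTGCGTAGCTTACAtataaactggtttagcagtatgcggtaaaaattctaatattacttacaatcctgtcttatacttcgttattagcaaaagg
The distance between LTR and peak was 85 bp at SPNCRNA.1058 and 20 bp at SPNCRNA.383.

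The 20 whole peaks made up 1.4% of the 1428 *SUMO-KallR* arm peaks (20 of 1428, exact 95% interval 0.858% to 2.15%, which covers the counting of peaks only). They were narrow and low. Their length was 314 to 1067 bp with a median of 411 bp, against a median width of 5105.5 bp for all *SUMO-KallR* arm peaks. The rule limits this length, because a whole peak has to fit in a gap of the untagged and WT lists. These gaps had a median of 374.5 bp and were at most 5639 bp long. The height of a peak, its highest −log10 p-value, was read as the deposited score divided by 10, and heights are not compared between lists. Whole peaks had heights of 2.5 to 7.7 with a median of 4.8, against a median of 16.0 for all *SUMO-KallR* arm peaks (quartiles 12.2 and 19.0). Of the 1428 arm peaks 182 (12.7%) were no higher than 7.7, and the 20 whole peaks were 11.0% of these. By the same rule turned round, 38 of 803 untagged arm peaks touched no peak of the *SUMO-KallR* or WT lists, which is 4.73% (3.37% to 6.44%). These untagged peaks were of like width, 300 to 1033 bp, and the rule limits their width in the same way.

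**Figure D1:**
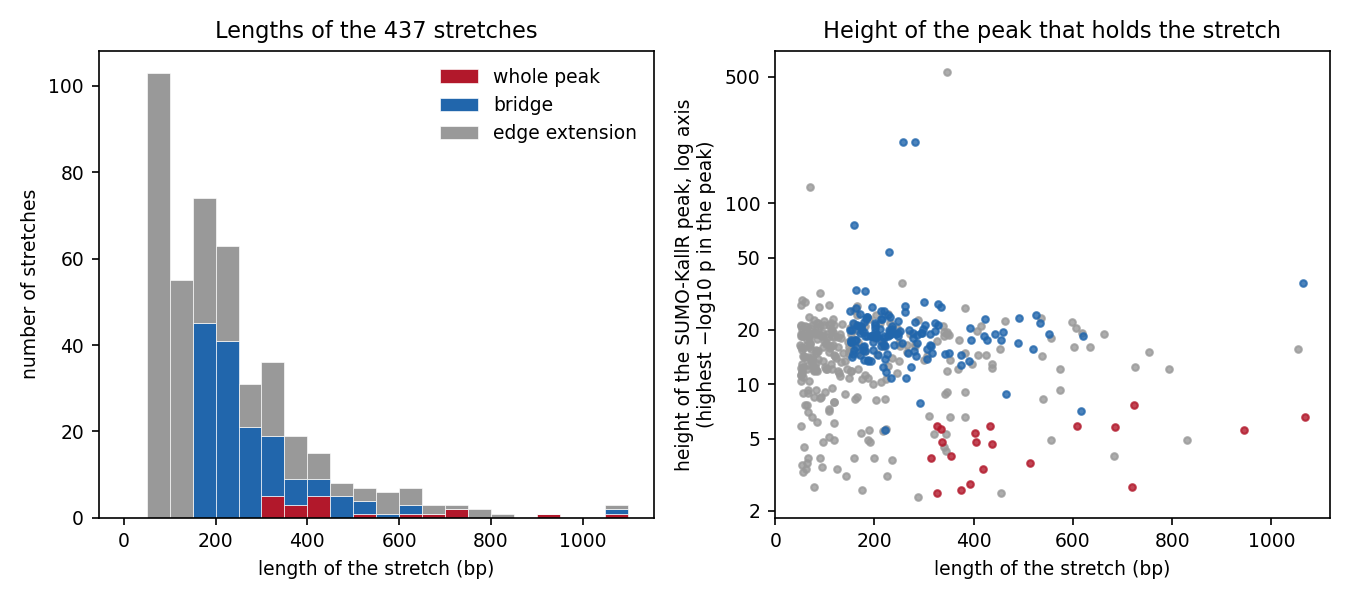
Left, number of stretches by length in bins of 50 bp, stacked by kind. Right, length of each stretch against the height of the *SUMO-KallR* peak that holds it, on a log axis. The 20 whole peaks lie between heights of 2.5 and 7.7, while bridges sit mostly near the median of their host peaks, 18.8.

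Of the 20 whole peaks, 17 overlapped a lncRNA gene, 8 of them lncRNA genes of both strands, and 16 had their summit in a lncRNA gene with no coding or untranslated overlap. Of the bases in whole peaks 81.4% (8231 of 10114 bp) were such lncRNA sequence, against 47.7% of arm sequence that lies under no peak of any list and 11.3% of all arm sequence. A further 7.56% were untranslated regions (UTRs) of mRNAs, 5.92% lay between genes and 4.44% were coding. By their midpoints, 10 whole peaks (50%) lay between divergent coding regions, 9 (45%) between tandem and 1 (5%) between convergent ones. These shares were near those of the bases under no peak of any list, 45.7%, 43.6% and 4.48%. Over all arm bases they were 14.4%, 17.7% and 5.64%. Every 150-base word centred on a position in the whole peaks occurs once in the genome, so reads of that length centred there place uniquely.

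The highest whole peak, chrI:5200743-5201465, reached 7.7 and lay entirely in the lncRNA genes SPNCRNA.1058 and SPNCRNA.1059, which overlap on opposite strands. Its flanking coding genes were the retrotransposon Tf2-8, 1030 bp to the left, and *pyp2*, which encodes a tyrosine phosphatase of the stress MAP kinase pathway, 1190 bp to the right. The gap in the untagged list was 2097 bp long and the peak filled 34.5% of it. The next *SUMO-KallR* peaks lay 569 bp to the left, with a height of 38.8, and 245 bp to the right, with a height of 18.0. A WT peak of height 6.4 lies at chrI:5198008-5198337 on the left side, wholly under an untagged peak.

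The longest whole peak, chrII:1686846-1687912, had a height of 6.6 and a length of 1067 bp. It covered the start of *mug124*, a gene named for its upregulation in meiosis, and the divergent SPNCRNA.1453, and its summit fell in a coding exon of *mug124*. The gene was met by stretches of all 3 kinds, which covered 1031 bp or 51.4% of it, 360 bp of that coding. The bridge at its other end, chrII:1684552-1685615, was 1064 bp long, lay in a *SUMO-KallR* peak of height 36.1 and had a GC content of 28.7%, against 40.1% in the whole peak. It ran between *mug124* and the last 4 bp of *pat1*, which encodes the kinase that holds back meiosis. To the right of the whole peak, 408 bp away, followed *fba1*, the aldolase of glycolysis.

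The next 3 whole peaks each had a height of 5.9. The peak at chrI:441274-441599 lay over SPNCRNA.2175 and SPNCRNA.2176 between *mre11*, a nuclease subunit of double-strand break repair, and *fep1*, the iron-responsive repressor of iron uptake genes. The peak at chrII:1969810-1970418 lay over SPNCRNA.383 and SPNCRNA.5428 beside Tf2-10 and filled 73.8% of its gap of 825 bp. Its right end was 49 bp from an untagged peak, the shortest distance of any whole peak. The peak at chrII:3812072-3812503 touched *oaa1* and *rib7*, an enzyme gene of riboflavin synthesis, and had its summit in SPNCRNA.1643.

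**Figure D2:**
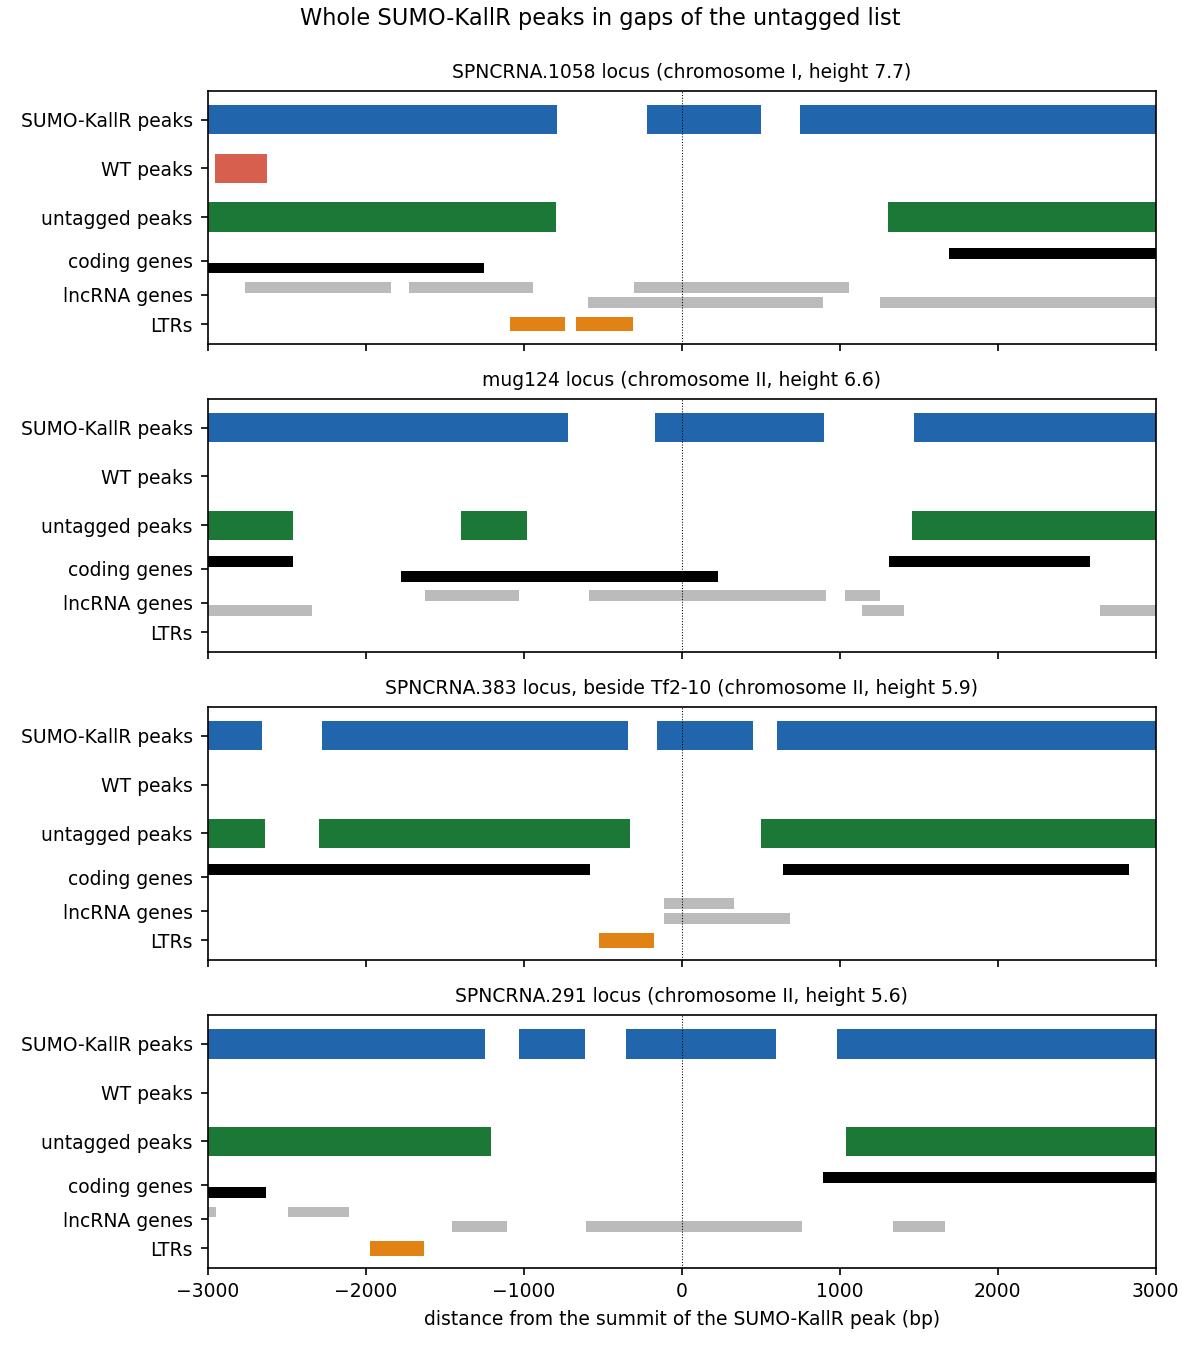
*SUMO-KallR*, WT and untagged peaks at 4 whole *SUMO-KallR* peaks, with coding genes, lncRNA genes (plus strand above minus strand) and LTRs, by distance from the summit in bp. In each panel the peak at 0 lies in a gap of the untagged list, with taller neighbours of the *SUMO-KallR* list on both sides, except on the left at SPNCRNA.291, where the neighbour is the whole peak of height 3.4.

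Heights of 5.4 to 5.8 were found at 4 further loci. The peak chrI:2519212-2519895 (5.8) lay over SPNCRNA.831 and the first 28 bp of *gpa2*, the G protein alpha subunit of glucose sensing. The peak chrI:4142834-4143167 (5.7) lay in SPNCRNA.964 between the divergent genes *tif51*, which encodes translation factor eIF5A, and *mug56*. The peak chrII:103419-104363 (5.6) lay in SPNCRNA.291 and shared its gap of 2243 bp with a second whole peak, chrII:102743-103160 (3.4), the only one of the 20 that overlapped no gene and the one with the lowest GC content, 28.7%. The peak chrI:4179119-4179521 (5.4) covered SPNCRNA.968 and SPNCRNA.3864, 439 bp from *isp7*.

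The other 10 whole peaks were 4.8 high or lower. Beside lncRNA genes alone were chrII:963359-963694 (4.8, SPNCRNA.1400, near *ecl2*), chrIII:352597-353000 (4.8, SPNCRNA.1133, between *pil1*, which builds eisosomes of the plasma membrane, and *duc1*), and chrI:4456483-4456920 (4.7, SPNCRNA.989 and SPNCRNA.4010). The last of these lay between *atd1* and *cbh1*, a CENP-B homologue, at 825 bp and 1999 bp. SPNCRNA.900 (chrI:3301348-3301702) had a height of 4.0, and it lies between *eme1*, a subunit of the Mus81 nuclease, and *glt1*, glutamate synthase. At chrII:675323-675836 the height was 3.7 over SPNCRNA.322 and SPNCRNA.4826, between the flocculin-like gene *pfl3* and *apl2*. The remaining lncRNA loci were SPNCRNA.2710 and SPNCRNA.2711 beside *gln1*, glutamine synthetase (chrI:1598717-1599108, 2.8), SPNCRNA.949, SPNCRNA.3761 and SPNCRNA.950 between *sut1* and *hem1*, the first enzyme of haem synthesis (chrI:3938585-3939304, 2.7), and SPNCRNA.1606 (chrII:3493030-3493403, 2.6). The last 2 lay wholly in annotated UTRs, of SPAPB15E9.06 (chrI:3994670-3994983, 3.9) near Tf2-5 and of *mug115* (chrI:1149314-1149639, 2.5), the lowest of the 20. Of all whole peaks 6 (30%) were within 1000 bp of an LTR and 0 bases lay in one. Among edge extensions 34 of 274 (12.4%) were that near an LTR. By bases, 3.59% of all arm sequence and 12.7% of arm sequence under no peak of any list lay within this distance. These shares count single bases, while a peak or extension counts once its nearest edge is that near, so the measures are unlike.

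The nearest untagged edge was 49 to 1153 bp from the 20 whole peaks (median 481.5 bp). The nearest *SUMO-KallR* peaks were 154 to 3922 bp to the right and 166 to 3283 bp to the left. GC content of the whole peaks ran between 28.7% and 40.8%, with 36.8% over all of their bases, against 36.2% for all arm sequence.

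A further 12 stretches held the summit of their *SUMO-KallR* peak although another part of that peak met an untagged peak. The highest was the bridge chrIII:1211942-1212103, whose host peak was 33.2 high with the summit in a coding exon of *arp6*, an actin-related subunit of the complex that deposits histone variant H2A.Z. The 11 edge extensions with a summit had host heights of 2.4 to 12.1, and 10 of these summits lay in a lncRNA gene. By bases, lncRNA sequence with no coding overlap made up 50.0% of all edge extensions and 47.7% of arm sequence under no peak of any list. SPNCRNA.1164 was met by 2 of the 11, chrIII:969990-970357 with a height of 12.1 and chrIII:966642-966985 with 4.3. SPNCRNA.3598 (chrI:3574187-3574760) followed at 9.3, and SPNCRNA.1571 and SPNCRNA.1572 were both met by chrII:3009223-3009409 (4.9) and by chrII:3009888-3010342 (2.5). The only such summit between genes was at chrI:1005248-1005470 (5.7), a stretch that reached an LTR.

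Edge extensions were the most frequent kind and were short, with a median of 121 bp (50 to 1054 bp). Their host peaks had a median height of 15.0, close to the 16.0 of the 1046 *SUMO-KallR* arm peaks that held no stretch. The longest, chrI:1874774-1875827, was 1054 bp long in a peak of height 15.7 and filled 98.0% of its gap, across SPNCRNA.766, SPNCRNA.767, SPNCRNA.768, SPNCRNA.2845 and SPAPB1A10.08. The second, chrI:4195812-4196641, was 830 bp long and 4.9 high with its summit inside, and it covered 55.3% of SPAC683.03. After these, chrIII:2040195-2040988, was 794 bp long over SPNCRNA.7602, SPNCRNA.7603 and an LTR.

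The other 7 of the 10 longest edge extensions were 607 to 754 bp long. The 754 bp of chrII:3531834-3532587 met SPBC1105.13C, and the 725 bp of chrI:1453986-1454710 lay in SPNCRNA.2638. At chrI:5268351-5269032 the 682 bp over SPNCRNA.1063 and SPNCRNA.1064 held the summit of a peak 4.0 high. SPNCRNA.3750 was met over 662 bp (chrI:3920133-3920794) and SPNCRNA.717 with SPNCRNA.2520 over 607 bp (chrI:1165630-1166236). At the 5′ end of *ssa1*, an Hsp70 chaperone gene, the extension chrI:2297864-2298498 was 635 bp long with a host height of 16.0. At the 5′ end of *ole1*, the fatty acid desaturase gene, the extension chrIII:1394704-1395321 was 618 bp long with a host height of 19.3 and a GC content of 44.5%.

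Bridges were 151 to 1064 bp long (median 228 bp). The lower limit follows from the lists, since the smallest gap was 151 bp. Their host peaks had the highest median of the 3 kinds, 18.8 (95% interval of the median over peaks 18.3 to 19.5). After the *mug124* bridge, the longest were chrI:2812590-2813210 (621 bp, SPAC1B2.06), chrII:2826442-2827057 (616 bp, SPBC19C7.04C, SPNCRNA.1553 and SPNCRNA.1554) and chrII:1872990-1873540 (551 bp, the F-box gene *pof9* and SPNCRNA.1471). The remaining 6 of the 10 longest were 465 to 533 bp long. The one at chrII:133400-133932 met no gene. The others met *pgi1*, which encodes phosphoglucose isomerase, with SPNCRNA.1648 and SPBC1604.04 at chrII:3923550-3924075, and the alpha-glucosidase gene *mal1* at chrII:153107-153625. They also met the 14-3-3 gene *rad24* by 4 bp, with SPNCRNA.904 and SPNCRNA.3510, at chrI:3383739-3384230, *pof4* at chrII:2052252-2052741, and *ecm33*, a cell wall protein gene, with SPNCRNA.2693 at chrI:1571444-1571908.

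The tallest host peaks took their height from outside the arms. The edge extension chrII:1678528-1678874 at *ubp11* lay at the end of a peak of height 531.7 that starts within 50 kb of *cnt2*, at 1635430, and has its summit there, at 1645841. The bridges chrIII:1157260-1157540 and chrIII:1195866-1196122, which meet *ipk1* and *nse1*, belonged to 1 peak of height 218.9 and 69255 bp, with its summit at 1134048. These heights are not those of the stretches themselves. Next followed *gsf2*, the galactose-specific flocculin gene, where 2 peaks with heights of 29.1 and 123.0 ran past the untagged peaks by 54 bp (chrIII:960372-960425) and 71 bp (chrIII:965086-965156). Only 20.4% of the positions in the first of these are unique in the genome at 150 bases, against 100% in the second.

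Seen from the gaps, *SUMO-KallR* peaks covered 22.3% of the 466006 bp in the 808 gaps that the untagged and WT lists left on the arms. Of these gaps 143 (17.7%) were bridged, 236 (29.2%) were extended from an edge, 19 (2.35%) held a whole peak and 410 (50.7%) held no stretch of 50 bp or more. The outcome changed with the length of the gap. Bridges were found in 108 of 323 gaps of 151 to 300 bp (33.4%), in 32 of 266 of 301 to 600 bp (12.0%), in 3 of 142 of 601 to 1200 bp and in 0 of 77 longer ones. Whole peaks were found in 16 of the 77 gaps over 1200 bp (20.8%) and in 3 of the 142 of 601 to 1200 bp. No *SUMO-KallR* peak is shorter than 309 bp, so shorter gaps cannot hold a whole peak.

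GC content differed between the gaps with and without a stretch. Its median was 34.8% in bridged gaps, 35.3% in extended gaps, 36.5% in gaps with a whole peak and 30.5% in gaps with no stretch. Gaps with no stretch had the lowest median in each of the 4 length classes. In gaps of 301 to 600 bp the medians were 36.0% (bridged) and 34.7% (extended) against 26.9% (no stretch), and in gaps over 1200 bp they were 37.2% (extended) and 36.9% (whole peak) against 35.5% (no stretch). GC content can change how well a fragment is amplified and sequenced, and its part in the calls was not tested.

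**Figure D3:**
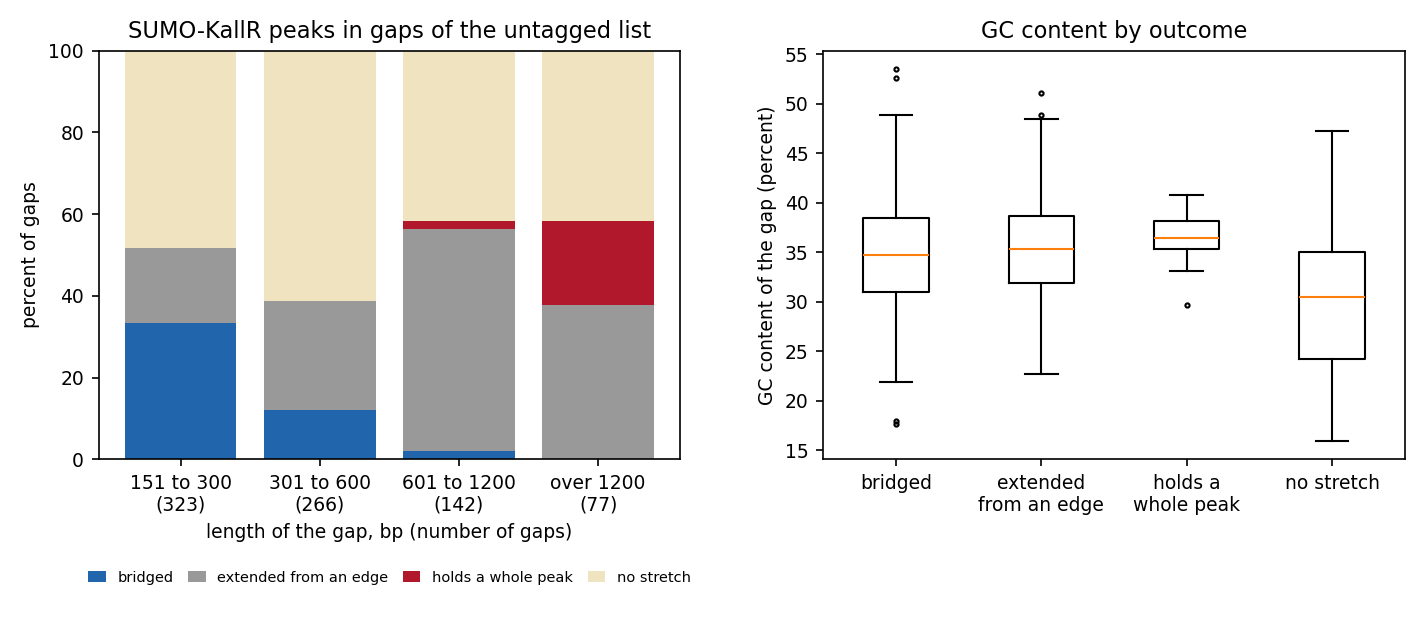
Left, percent of gaps in the untagged list that were bridged, extended from an edge, held a whole *SUMO-KallR* peak or held no stretch, by gap length in bp. Right, GC content of the gaps by outcome, with median, quartiles and whiskers of 1.5 times the quartile range, where the median of 30.5% in gaps with no stretch is the lowest of the 4.

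The stretches are a small part of the arms. Arm sequence under *SUMO-KallR* peaks only, pieces under 50 bp included, came to 104075 bp or 0.892% of 11671820 bp, while 92.4% lay under peaks of both *SUMO-KallR* and the untagged or WT list, 3.57% under untagged or WT peaks only and 3.10% under neither. By chromosome, the *SUMO-KallR*-only share of the arms was 0.770% (I), 0.965% (II) and 1.05% (III). Turned round, the rule gave 1445 stretches and 412280 bp under untagged peaks only. Of these, 784 were bridges, 620 edge extensions, 38 whole peaks and 3 stretches cut by the limit of the arms. The WT list held 59 peaks in all. Of these, 7 lie wholly on the arms, 2.0 to 6.4 high, and all 7 were wholly under untagged peaks. Subtracting the WT list as well as the untagged list therefore removed nothing more. In practice, arm sequence under untagged or WT peaks is sequence under untagged peaks, and the 92.4% is not a share held in common with WT. Lack of a WT peak does not set the 437 stretches apart from other *SUMO-KallR* arm peaks.

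lncRNA sequence with no coding overlap made up 48.1% of the bases under *SUMO-KallR* peaks only, against 8.85% under both lists, 34.1% under untagged or WT peaks only and 47.7% under neither. Coding exons made up 10.2% of the *SUMO-KallR*-only bases, against 63.0%, 8.61% and 6.12% of the same 3 kinds. Sequence between divergent coding regions made up 48.9%, against 11.8%, 47.6% and 45.7%, and LTRs 2.91%, against 0.165%, 5.29% and 5.18%. The lncRNA share was thus close to that under neither list, and the LTR share was lower than there. In GC content, at 35.8%, they were nearer to the sequence under both lists (36.5%) than to untagged or WT only (30.9%) or neither (33.6%).

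**Figure D4:**
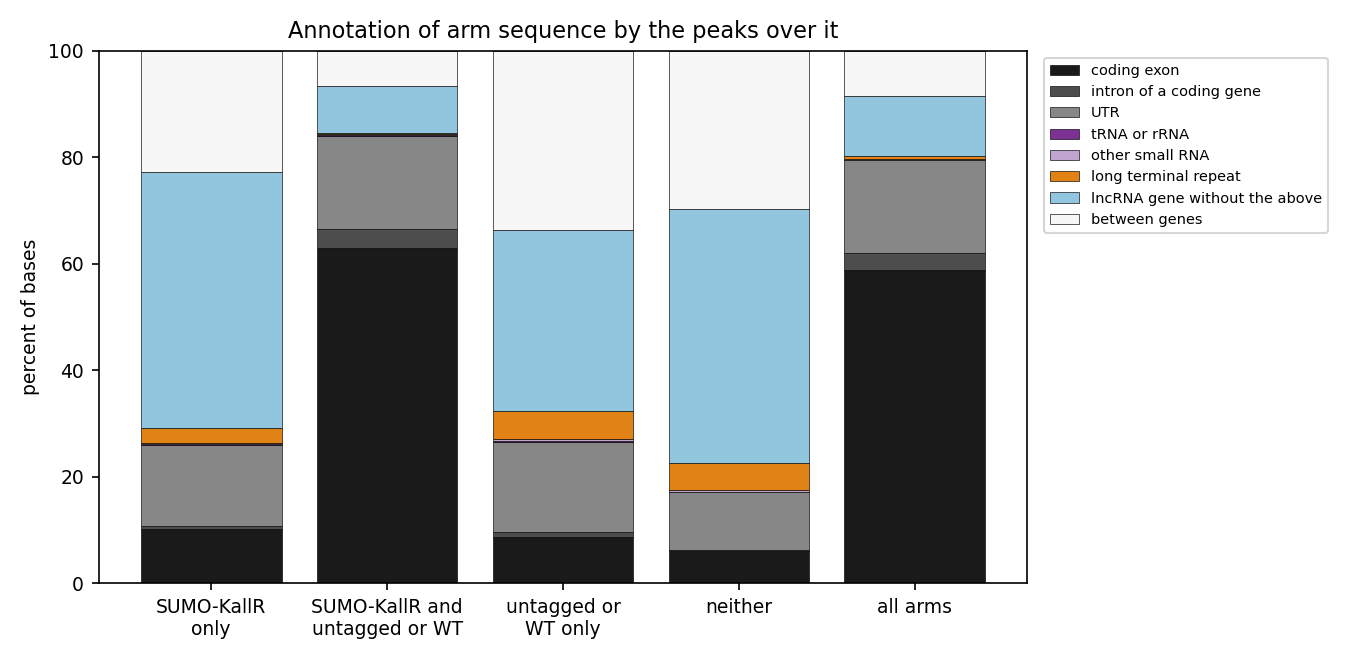
Percent of arm bases by annotation, for sequence under *SUMO-KallR* peaks only, under *SUMO-KallR* and untagged or WT peaks, under untagged or WT peaks only, under neither, and for all arms. lncRNA genes take 48.1% of the first bar and 47.7% of the bar for neither, against 8.85% of sequence under both.

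Runs of A or T set the kinds apart in another order. The word AAAAAAAA, searched on both strands and so also as TTTTTTTT, was found in 17.9% of the 470 windows of 200 bp that are mostly under *SUMO-KallR* peaks only. It was found in 9.33% of windows under both lists, 23.6% of windows under untagged or WT peaks only and 26.9% of windows under neither, and in 10.5% of all arm windows. The median GC content of these windows was 35.5% under *SUMO-KallR* only, against 36.5%, 30.5% and 34.0%. In windows of 500 bp the word was found in 44.7% under *SUMO-KallR* only and in 21.4% under both lists. The shares were 46.1% under untagged or WT peaks only and 49.4% under neither, so these kinds lay close to *SUMO-KallR* only at that window size. A match describes the letters and marks no site.

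By genes, 568 of 11715 arm genes (4.85%) were met by a stretch over at least 1 bp, and 13 of them wholly. This share is the background for all counts here, and it depends on gene length and on where gaps lie. It was 5.51% for lncRNA genes (363 of 6593), 4.10% for protein-coding genes (199 of 4853), 6.06% for snoRNA genes (4 of 66) and 0.877% for tRNA genes (1 of 114). Of the 199 coding genes 118 were met outside their coding sequence only. LTRs were met more often than genes, 25 of 194 (12.9%), 1 of them wholly. By bases, LTRs were 2.91% of *SUMO-KallR*-only sequence, more than the 0.528% of all arms. This was less than the 5.29% under untagged or WT peaks only and the 5.18% under neither.

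None of the genes for loading Cnp1 and building the kinetochore (0 of 26), for the SUMO pathway (0 of 10), for recombination and PCNA (0 of 22) or for histones (0 of 11) was met. The counts were also 0 of 13 Tf2 elements, 0 of 25 *wtf* genes, which are meiotic drivers, 0 of 36 rRNA genes and 0 of 8 meiotic genes whose transcripts Mmi1 removes. With a background of 4.85% for all genes, few or no genes would be met in lists this short. The counts of 0 are therefore not read as avoidance. In the heterochromatin list 1 of 14 was met, *clr4*, the histone H3 lysine 9 methyltransferase, over 182 bp or 4.12% of the gene and outside its coding sequence. The *mug* list had 4 of 89, namely *mug124*, *mug115* (326 bp), *mug153* (228 bp) and *mug116* (54 bp). Ribosomal protein genes had 7 of 135, over 3 to 54 bp each (*rpl3703*, *rps1601*, *rps902*, *rpl29*, *rps401*, *rpl39* and *rpl15*). Their share of 5.19% was near the background of 4.85% for all genes, and the share for protein-coding genes was 4.10%. The hexose transporter list had *ght4* (172 bp, 1 of 6) and the flocculin list *gsf2* (125 bp, 1 of 6).

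Of the small RNA genes, *snoZ4*, a snoRNA gene of 88 bp, lay wholly in a bridge. The others were met in part, over 44 bp of *snR30*, 38 bp of *snoU14*, 8 bp of SPNCRNA.1650 and 59 bp (79.7%) of the asparagine tRNA gene SPBTRNAASN.03. All 4 were met by edge extensions.

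Nearly all stretches can be mapped. Of the 437, 427 consisted only of positions whose 150-base word is unique in the genome, and the other 10 had between 0% and 99.0% such positions. The lowest was in the mating-type region, where 1 peak of height 8.8 (chrII:2114104-2115217) ran past the untagged peaks on both sides of the expressed cassette *mat1*. Its left extension, chrII:2114104-2114445, had 20.8% unique positions and covered the whole of *mat1-Mi*, which encodes a protein of the minus mating type, and its right extension, chrII:2115078-2115217, had 0%. Another stretch on chromosome II, chrII:2133510-2134083, had 64.1%. Low values were also found at chrI:3361214-3361304, a stretch wholly in an LTR (5.49%), and at the *gsf2* extension chrIII:960372-960425 (20.4%). The *mat1* cassette is exchanged by copying from silent donor cassettes nearby. Of the 3 strains only WT (h+) has a mating type given in the sources used here, and the part of mating type and repeats in these calls was not tested. *mat1-Mi* and the 2 genes that follow were named after their values were seen. The next most covered coding genes were SPCC13B11.02C (95.9%, in an extension of a peak of height 4.9) and SPCC1840.13 (83.0%, height 9.1).

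The limit of 50 bp divides a smooth range of lengths. The shortest 5 stretches were 50, 51, 51, 51 and 52 bp long, and the longest 5 left out were 48, 48, 49, 49 and 49 bp. In all, 154 stretches of 3880 bp fell under the limit.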

How the data were processed

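The authors used cutadapt for trimming and Bowtie2 for mapping to ASM294v2 and to budding yeast sacCer3, removed unmapped, rDNA, mitochondrial and duplicate reads with SAMtools, scaled ChIP and control and calibrated them by the budding yeast reads, and called peaks in each library with MACS3 *bdgpeakcall*. The reporting summary of the study names *bdgpeakcall* as well, but lists as its parameters a MACS3 *callpeak* command with the input as control. Neither a cutoff for the calls nor any tool version is given in the sources used here. According to the labels, a later and stricter removal of background is included, with no details given in the sources used here. For each peak the lists the authors deposited hold both ends, the summit and a score. MACS usually writes this score as 10 times the top −log10 p-value, which no header states, and a height here is the score divided by 10. Heights depend on depth. The study states read numbers per library, which were not used here, and the lists hold no reads per peak, so heights were ranked within a list only.

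Positions, genes and sequences were taken from ASM294v3 (RefSeq), within whose chromosomes all peaks end. The members and gene lists were chosen with earlier results of these data known. A stretch was a whole peak if its *SUMO-KallR* peak overlapped no untagged and no WT peak, a bridge if both ends met such a peak, and otherwise an edge extension. Bases were assigned to 1 annotation in the order coding exon, intron, UTR, tRNA or rRNA, other small RNA, LTR, lncRNA and between genes. The text names every whole peak with its genes, the 10 longest bridges and edge extensions, the 10 highest peaks with the summit in a stretch, lengths around 50 bp and every gene of the lists that a stretch met. Intervals are exact 95% binomial intervals for shares and order-statistic intervals for medians and cover counting only. The scripts were tested on simulated data. Alternatives were other length limits, arm limits, height floors, merged or widened untagged peaks, subtraction of the untagged list alone and windows of 500 bp. The software was Python 3.11.15 with pandas 2.3.3, NumPy 2.4.6, matplotlib 3.10.9 and SciPy 1.17.1. Input libraries were not analysed here.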

Additional observations from a re-analysis of the deposited data

How the results depend on the processing

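With 1 library a strain, all values describe these peak lists and carry no replicate error. No paired analysis was possible because each strain has 1 ChIP library and replicate number 1 only. Subtracting the untagged list alone changed none of the 6 values computed for it. With untagged peaks closer than 500 bp merged, 194 stretches and 54013 bp were left, with a GC content of 36.8%, a median host height of 13.1 and a lncRNA share of 56.9%. With untagged peaks widened by 200 bp on each side, 93 stretches and 26198 bp were left, with 36.9%, 13.0 and 67.3% for the same measures. The limit of 200 bp left 205 stretches with a GC content of 36.2% and a lncRNA share of 52.8%. A floor of 10 on *SUMO-KallR* heights left 0 whole peaks, with a GC content of 35.5%, a median host height of 17.6 and a lncRNA share of 42.0%, and a floor of 5 left 9 whole peaks with a lncRNA share of 45.9%. A floor of 5 on untagged heights gave 45 whole peaks and a lncRNA share of 50.6%. The lncRNA share, 48.5% over the 437 stretches, was 48.1% with stretches of any length, 47.4% with 50 kb left out at each chromosome end and 49.0% with 100 kb left out on each side of *cnt*. In windows of 500 bp the median GC content under *SUMO-KallR* only was 36.4%, against 35.5% in windows of 200 bp, and so equal to the 36.4% under both lists, where windows of 200 bp gave 36.5%.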
